A study of Mus musculus with 18 samples.

Results

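The comparison is that of pups sampled 24 h and pups sampled 4 h after a single gavage with Lactobacillus reuteri ATCC PTA 6475, described across all genes of the ileal epithelium. Its members are the arrays whose titles carry this strain and 1 of these times, 3 and 3, which make 6 of the 18 arrays of the study. The 3 pups of the 24 h group were given 1e+08 colony-forming units of the strain in 50 uL of phosphate-buffered saline (PBS) and were 12 days old at sampling. The 3 pups of the 4 h group had the same gavage and were 11 days old at sampling. Pups given L. reuteri DSM 17938 at the same dose, and pups given PBS alone, were sampled at the same times and ages, 3 in each group, and serve here only to set the time difference of the other strain and of the vehicle beside it. All pups were CD-1 mice, an outbred stock, of both sexes and kept free of specific pathogens, and no pup went without a gavage. Time since gavage and age cannot be told apart in this design, and a difference between 24 h and 4 h in the ATCC PTA 6475 pups holds both. The hour of day at sampling is not among the sample details used here, and its part in such a difference was not tested.

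The ileal epithelium of a suckling mouse is a single sheet of cells that takes up milk protein and milk fat, and it is renewed from dividing cells at the base of the villi. Absorptive enterocytes make up most of it, goblet cells secrete the mucus that keeps bacteria off the surface, Paneth cells release antimicrobial peptides and enteroendocrine cells release hormones. L. reuteri colonises the gut of many mammals, and ATCC PTA 6475 and DSM 17938 are strains of human origin given as probiotics. Transcripts of the epithelium are read here in an animal still some days from weaning, when the enterocyte shifts from handling milk to handling solid food.

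Epithelium was lifted by laser capture, which cuts cells seen under a microscope off a tissue section, from 24 sections of the last 4 cm of the ileum of each pup. Levels are log2 signals of an Illumina bead array after background correction and quantile normalisation, and the level of 1 probe stands for its gene. The mean raw signal of the arrays was 439.2, 210.3 and 261.5 in the 24 h pups, against 323.3, 345.5 and 331.0 in the 4 h pups, in the order of their replicate numbers, and 20284 to 22406 of 45281 probes were detected. All 12 epithelial identity markers tested were detected, with levels of 13.49, 13.39 and 13.10 at 24 h and 12.95, 13.40 and 13.04 at 4 h for the keratin Krt8. Markers of tissue below the epithelium were bright as well: the smooth muscle actin Acta2 lay between 14.64 and 15.15 at 24 h and between 14.92 and 15.15 at 4 h, and the fibroblast proteoglycan Dcn at 13.47, 13.30 and 13.43 against 13.58, 13.27 and 13.32. The labels do not give the sex of each pup. Xist, the transcript of the inactive X chromosome, stood at 12.76, 12.46 and 4.50 in the 24 h pups and at 4.43, 4.52 and 4.44 in the 4 h pups, so 2 of the 3 pups at 24 h and none of those at 4 h read as female, and sex moved with time in these 6 arrays. A fit with sex as a covariate was run beside the main one, and its values are given for the lists whose median it turns or whose count of members it moves most. A fit on the arrays that read as male, added after seeing the data, left 1 pup in the 24 h group, which was assumed to vary like the other groups. Each array carries RNA of its own pup per the labels, so the p-values rest on differences between animals, and the small number of arrays limits the precision. The litter of each pup is not among the sample details used here. Whether pups of a group shared a litter is therefore not known, and its part in the differences was not tested.

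No gene passed the test between 24 h and 4 h. Of 16835 genes and unnamed probes tested with limma, 0 (0%) had a Benjamini-Hochberg adjusted p under 0.05, and the lowest adjusted p was 0.165, that of Nnat. At an unadjusted p under 0.05 there were 1002 (5.95%), 527 higher at 24 h (3.13%) and 475 lower (2.82%). The levels of the 24 h and 4 h pups did not overlap for 1825 of the genes and probes (10.8%). These shares are the background for the counts of this fit below, while other settings and comparisons have shares of their own. With sex as a covariate 1392 of the 16835 had an unadjusted p under 0.05, 744 higher and 648 lower. Leaving out 1 pup at a time gave 814 to 1305, with 416 to 704 higher and 374 to 601 lower. In the main fit the differences spanned -0.39 to 0.37 on the log2 scale between their 5th and 95th percentiles, with a median of 0.005, and 66 exceeded 2-fold, 34 higher and 32 lower at 24 h. The median standard error of a difference was 0.18, and the median SD between pups was 0.21 at 24 h and 0.19 at 4 h. The split between higher and lower depends on the scaling: with arrays brought to a common median in place of quantile normalisation, the median of all genes moved to -0.12, and of 525 at an unadjusted p under 0.05, 65 were higher and 460 lower. All differences below are therefore relative to a distribution shared by the arrays, and none of the genes named changed by the adjusted test.

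Among the 15 named genes with the smallest unadjusted p in the upward direction, differences lay between 0.55 and 0.93 on the log2 scale, and all adjusted p were at least 0.594. Mgat3, which adds the bisecting sugar to N-linked glycans, had levels of 7.08, 7.37 and 6.99 at 24 h and of 6.54, 6.36 and 6.46 at 4 h. Its mean was 7.14 ± 0.20 against 6.45 ± 0.09 (SD, n = 3 each), a difference of 0.69 ± 0.16 (SE) or 1.62-fold, while the same difference was 0.01 with DSM 17938 and -0.04 with PBS. All 3 pups at 24 h stood above all 3 at 4 h, as they did for the other 14 genes, which follows from ranking by p. Noct, a rhythmically expressed phosphatase of the clock output, had levels of 8.00, 8.40 and 8.40 at 24 h against 7.56, 7.74 and 7.24 at 4 h, a difference of 0.75 ± 0.17 (SE), and a second probe gave 0.46. Cdca3, which acts at the entry into mitosis, had levels of 10.89, 11.07 and 10.93 at 24 h against 10.09, 10.50 and 10.51 at 4 h, a difference of 0.60 ± 0.15 (SE) that its second probe shared at 0.60. The Cdca3 difference was 0.36 with DSM 17938 and 0.39 with PBS, so it had the same direction in all treatments.

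The other upward genes were of mixed roles. Lss makes lanosterol, the first sterol of cholesterol synthesis, and had levels of 9.35, 9.39 and 9.32 at 24 h against 8.60, 8.95 and 8.53 at 4 h. Its difference was 0.66 ± 0.17 (SE), against 0.01 with DSM 17938 and 0.55 with PBS, but a second Lss probe gave -0.003. Tubgcp4, a part of the gamma-tubulin complex that starts microtubules, differed by 0.60 and Ccndbp1, a cyclin D binding protein, by 0.60, yet a second probe of each went the other way, at -0.49 and -0.69. Slco4a1, an organic anion transporter, was higher by 0.73, the matrix protein nephronectin (Npnt) by 0.70, the carboxylesterase Ces1f by 0.93 and the ubiquitin ligase adaptor Dcaf11 by 0.55. Ppp4r4, a regulatory subunit of protein phosphatase 4, was higher by 0.79, and Zswim9 by 0.79. Zfp599, Lyzl4 and Ankle1 were not well above background in any 4 h pup, and their 24 h means were at least 1.39-fold, 1.38-fold and 1.51-fold above the detection floor of those arrays. A second Ankle1 probe went the other way, at -0.24. Such bounds set the 24 h mean over 3 pups against the mean, over the 4 h arrays, of the higher of the probe's own signal and the lowest detected signal. Of the 15 genes, 13 were above 0 between the times in DSM 17938 pups and 9 in PBS pups, with medians of 0.10 and 0.03.

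The 15 named genes with the smallest unadjusted p in the downward direction differed by -1.37 to -0.49, again with no overlap between the pups of the 24 h and 4 h groups. Nnat, neuronatin, is a small membrane protein of the endoplasmic reticulum expressed from the paternal allele. It had levels of 5.47, 5.19 and 4.84 at 24 h, where 2 of 3 arrays detected it, against 6.05, 6.31 and 6.49 at 4 h. The difference of -1.12 ± 0.18 (SE; limma adjusted p = 0.165) compares with -0.38 for DSM 17938 and -0.42 for PBS, and the other Nnat probes gave -0.41 and 0.31. Nnat passed at an adjusted p of 0.0477 when arrays were weighted by quality, and passed together with Mosmo when replicate 1 of the 24 h group was left out. Cebpa, a transcription factor of differentiation and metabolism, had levels of 4.86, 5.14 and 4.92 at 24 h against 5.98, 6.01 and 5.93 at 4 h, a difference of -1.001 ± 0.21 (SE). The lowest detected signals of the 24 h arrays were 4.68, 4.79 and 4.86, so Cebpa lay near the floor there. The size of its difference depends on the processing, and it was -0.55 with the deposited values. The Cebpa difference was -0.06 with DSM 17938 and 0.004 with PBS.

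Eef2, the elongation factor that moves the ribosome along the message, had the widest gap between the times among the 30 genes with the smallest p in either direction. Its levels were 6.28, 7.56 and 7.08 at 24 h against 8.31, 8.52 and 8.21 at 4 h, a difference of -1.37 ± 0.34 (SE) or 2.59-fold. The other Eef2 probes gave -1.24 and -1.42, and the time difference was -0.56 in DSM 17938 pups and 0.10 in PBS pups. Akr1c12, an aldo-keto reductase of steroid and carbonyl metabolism, had levels of 7.40, 7.85 and 7.32 at 24 h against 8.80, 8.73 and 9.00 at 4 h, a difference of -1.32 ± 0.35 (SE). Of genes of protein turnover and trafficking, the ubiquitin ligases Rnf114 and Rnf41 were lower by 0.85 and 0.61 on the log2 scale, the ubiquitin-conjugating cofactor Ube2v1 differed by -0.89 and Creb3, a membrane-bound transcription factor, by -0.49. A second Rnf114 probe gave -0.37, and the other Rnf41 probes gave -0.42 and -0.29. Hpcal4, Astn1, Adgrb3 and Adcy1, all best known from neurons, differed by -0.80, -0.70, -0.66 and -0.63. Mosmo, which damps Hedgehog signalling, differed by -0.81. Lsmem1 and the glutamine carrier Slc38a1 were not well above background in any 24 h pup, so 4 h stood at least 1.12-fold and 1.42-fold higher by the bound described above. A second probe gave 0.33 for Slc38a1, 0.01 for Lsmem1 and 0.07 for Creb3. Of the 15 genes, 10 were below 0 between the times in DSM 17938 pups and 9 in PBS pups.

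**Figure D1:**
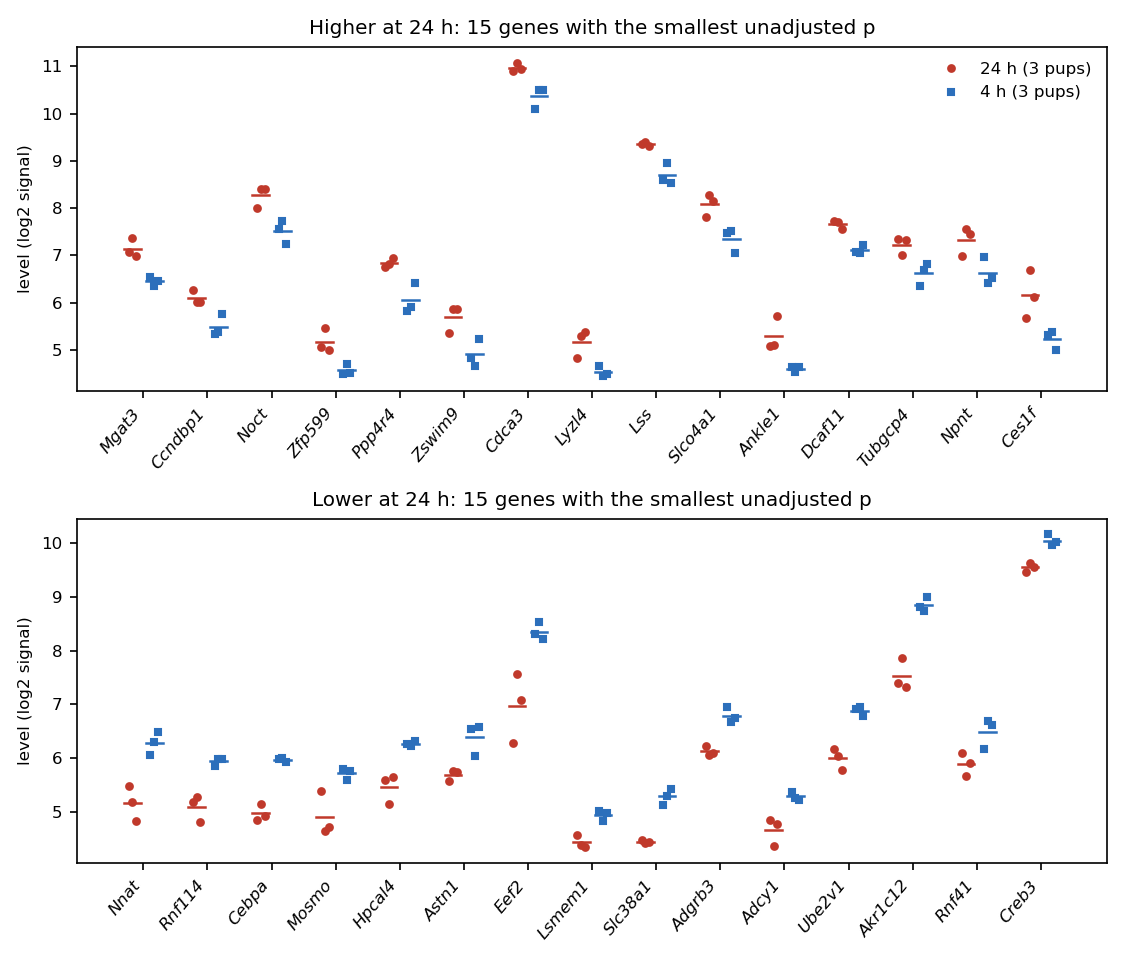
Level of each named gene in each pup on a log2 scale, with 24 h pups as circles to the left of 4 h pups as squares and group means as lines (n = 3 each). The 15 genes in the upper panel were higher and the 15 in the lower panel lower at 24 h, with no overlap between the times, and none passed the adjusted test.

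Goblet cell genes held the highest share of members at an unadjusted p under 0.05 of the epithelial cell types. Of 14 markers tested, 10 were above 0 and 4 below, 5 were higher at an unadjusted p under 0.05 (3.13% of all genes and probes were) and 0 lower, 7 had no overlap between the times (10.8% of all), and the median difference was 0.27 (0.005 over all). In bulk samples a change in the number of cells of a type and a change in RNA per cell, such as fewer cells and less RNA per cell, cannot be told apart. Tff3, the trefoil peptide that goblet cells secrete with mucin, had levels of 12.76, 13.08 and 13.14 at 24 h against 12.68, 12.60 and 12.24 at 4 h, a difference of 0.49 ± 0.16 (SE). Agr2, the disulfide isomerase that folds mucin, had levels of 6.26, 6.54 and 6.67 at 24 h against 6.03, 5.98 and 5.85 at 4 h, a difference of 0.53 ± 0.18 (SE). Clca1, a mucus-processing secreted protein, had levels of 11.30, 11.63 and 11.53 at 24 h against 11.10, 11.03 and 11.07 at 4 h, a difference of 0.42 ± 0.17 (SE), with 0.37 from its second probe. In each of these the 24 h pups stood above the 4 h pups, by less for replicate 1 of the 24 h group than for the others. The kallikrein Klk1 differed by 0.61 and Galnt12, which starts O-linked glycans, by 0.53. The brightest members did not move with them: Guca2a, guanylin, differed by -0.15 and the membrane mucin Muc13 by -0.04. The gel-forming mucin Muc2 itself, named after its values were seen, averaged 13.28 at 24 h and 13.05 at 4 h.

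With arrays brought to a common median, 0 of the 14 goblet markers had an unadjusted p under 0.05 and their median was 0.09, which is 0.22 above the shift of all genes in that setting. With sex as a covariate 4 of 14 were at that p, with a median of 0.25. Leaving out 1 pup at a time gave 3 to 6 members and medians from 0.18, without replicate 3 of the 4 h group, to 0.45, without replicate 1 of the 24 h group, with 0.41 without replicate 2 of the 4 h group. The same list had a median of -0.09 with DSM 17938, where 4 members were lower at an unadjusted p under 0.05 (1.28% of all), and of 0.11 with PBS, where 4 were higher (1.89% of all). The time difference with ATCC PTA 6475 exceeded that with DSM 17938 at an unadjusted p under 0.05 in 4 of the 14 (1.63% of all), led by Agr2, whose differences were 0.53 and -0.52, 1.05 ± 0.25 (SE) apart. Clca1 stood 0.91 ± 0.24 (SE) apart and Tff3 0.62 ± 0.22 (SE). No goblet marker passed the adjusted test of that difference, and the differences from PBS were -0.01 for Agr2 (95% interval -0.54 to 0.53) and -0.005 for Clca1 (95% interval -0.52 to 0.51).

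Genes of cell division and DNA replication were the other list with several members higher at 24 h. Of 29 tested, 21 were above 0, 5 were higher at an unadjusted p under 0.05 (3.13% of all) and 0 lower, and the median was 0.19. Rrm2, the subunit of ribonucleotide reductase made in S phase, had levels of 7.03, 7.01 and 6.64 at 24 h against 6.11, 6.55 and 6.65 at 4 h, a difference of 0.46 ± 0.19 (SE), and its other probes gave 0.10 and -0.10. Uhrf1, which copies DNA methylation onto new strands, had levels of 11.44, 11.51 and 11.94 at 24 h against 11.12, 11.46 and 11.27 at 4 h, a difference of 0.35 ± 0.16 (SE). The origin licensing factors Cdt1 and Cdc6 differed by 0.27 and 0.52 and the replicative helicase subunit Gins1 by 0.33. Only Cdt1 and Gins1 of these 5 had no overlap between the times. Replicate 1 of the 4 h group was the lowest of the 6 pups in Rrm2, Cdt1, Cdc6, Uhrf1 and Gins1. Without it, 0 of the 29 had an unadjusted p under 0.05 and the median was 0.06. With sex as a covariate 1 of 29 was at that p, with a median of 0.07, and with arrays brought to a common median 0 did. The list had a median of 0.03 with DSM 17938 and of 0.34 with PBS, where 7 members were higher at an unadjusted p under 0.05 (1.89% of all).

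For these 5 genes the 250 bases before the RefSeq start were searched on both strands for the E2F site of S-phase genes, spelled TTTCCCGC, TTTCGCGC, TTTGCCGC or TTTGGCGC. The 4 genes with a promoter entry have 5 starts. Of these genes Cdc6 and Uhrf1 held a match, Uhrf1 at 1 of its 2 starts. Of 32851 promoters of that length, counted by start, 1.86% held at least 1. The genes were picked by p in these data, and the match is a description of the sequence only. Gins1 had no entry.

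Metallothioneins bind zinc and copper and buffer the metal that milk brings, and the 2 main ones stood lower at 24 h together. Mt1 had levels of 14.41, 14.12 and 14.78 at 24 h against 14.98, 15.03 and 15.15 at 4 h, a difference of -0.62 ± 0.25 (SE). Mt2 had levels of 7.27, 6.57 and 7.33 at 24 h against 8.18, 7.62 and 8.79 at 4 h, a difference of -1.14 ± 0.38 (SE). No 24 h pup reached a 4 h pup in either gene. Differences of the same sign were seen with DSM 17938, at -0.21 for Mt1 and -0.60 for Mt2, and with PBS, at -0.48 and -0.99, and the ATCC PTA 6475 difference in Mt1 was -0.14 from that of PBS (95% interval -0.89 to 0.61). Of the 15 metallothioneins and zinc transporters tested, 8 were below 0, these 2 were lower at an unadjusted p under 0.05 and the median was -0.03. With sex as a covariate, and without replicate 3 of the 4 h group, 0 of the 15 were at that p, with list medians of 0.06 and 0.05. Mt4 was not detected in any of the 6 arrays, and the zinc importer Slc39a5 differed by 0.22, with -0.19, 0.01 and -0.62 from its other probes. The adjacent genes Mt1 and Mt2 are shown with the 250 bases before their RefSeq starts (GRCm38.p6, plus strand). These bases were searched for the core of the metal response element, the site of the zinc-sensing factor Mtf1. Bases outside this window were not searched. Capitals mark the core of that element, TGCACNC or TGCGCNC, on either strand.
Mt1, chr8:94178839-94179088: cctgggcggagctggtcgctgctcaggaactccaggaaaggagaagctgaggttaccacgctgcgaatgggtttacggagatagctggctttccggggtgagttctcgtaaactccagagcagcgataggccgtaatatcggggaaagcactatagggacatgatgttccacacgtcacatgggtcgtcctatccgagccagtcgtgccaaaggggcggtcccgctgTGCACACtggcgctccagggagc
Mt2, chr8:94172368-94172617: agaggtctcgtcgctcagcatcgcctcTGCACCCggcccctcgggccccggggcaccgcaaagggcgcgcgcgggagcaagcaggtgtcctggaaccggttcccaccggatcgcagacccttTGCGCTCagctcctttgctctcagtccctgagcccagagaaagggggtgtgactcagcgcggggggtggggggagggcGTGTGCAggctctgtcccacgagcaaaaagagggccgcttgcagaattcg
Mt1 held 1 core, starting at position -23 from the start, and Mt2 held 3, from position -223 to -50, with no overlap between them. Of 32851 promoters of that length, 21.4% held at least 1 core and 1.26% at least 3. The match is a description of the sequence only.

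**Figure D2:**
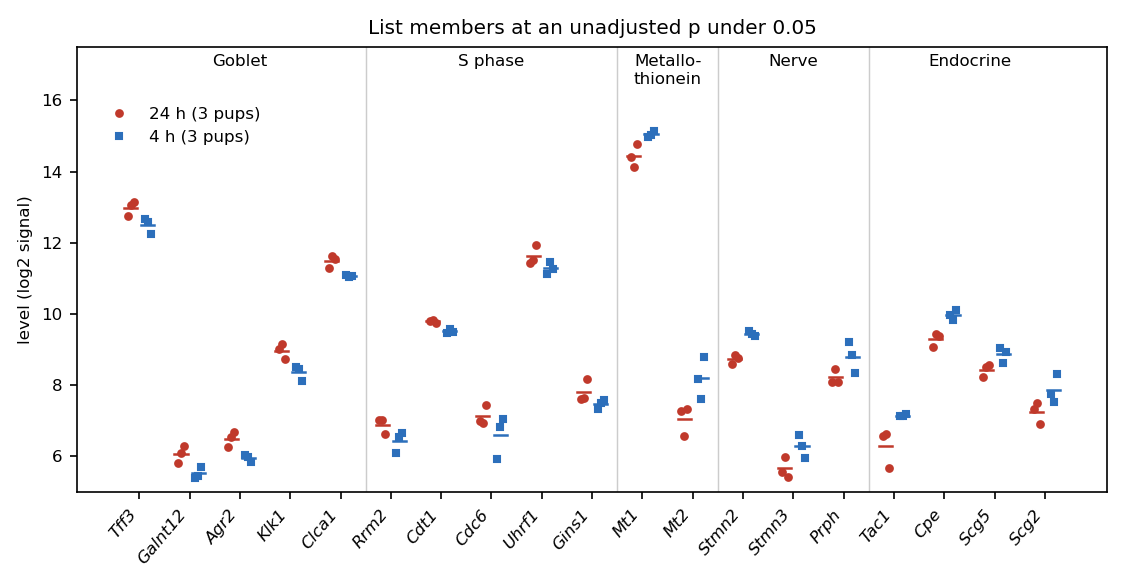
Level of the list members at an unadjusted p under 0.05 in each pup on a log2 scale, with 24 h pups as circles to the left of 4 h pups as squares and means as lines (n = 3 each). The goblet and S-phase genes shown stood higher and the metallothionein, nerve and endocrine genes shown lower at 24 h, and Rrm2, Cdc6, Uhrf1, Stmn3 and Prph overlapped between the times. The genes were picked by p, and other members of their lists are not shown. The whole enteroendocrine list had 10 members above 0 and 10 below.

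Genes of the enteric nerves and their glia had lower levels at 24 h nearly throughout. Of 14 tested, 13 were below 0, 3 were lower at an unadjusted p under 0.05 (2.82% of all) and 0 higher, and the median was -0.24. Stmn2, a neuronal regulator of microtubules, had levels of 8.61, 8.85 and 8.76 at 24 h against 9.54, 9.43 and 9.38 at 4 h, a difference of -0.71 ± 0.21 (SE). Its relative Stmn3 differed by -0.62 and the neuronal filament Prph by -0.58, with -0.78 from a second Prph probe. The brightest members, the receptor Ret and the neuropeptide galanin (Gal), differed by -0.09 and -0.03. The list median was 0.14 with DSM 17938 and -0.28 with PBS, and 2 of the 14 were lower with ATCC PTA 6475 than with DSM 17938 at an unadjusted p under 0.05 (1.48% of all). The direction held with arrays brought to a common median, at -0.39 or 0.27 below the shift of all genes. Replicate 1 of the 4 h group had the highest mean level of this list and of the smooth muscle list, and without it 1 nerve gene was at that p and the median was -0.20. Over all 6 settings that leave out a pup, 1 to 4 members were at that p and the median stayed between -0.47, without replicate 3 of the 4 h group, and -0.19.

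Enteroendocrine markers were split. Of 20 tested, 10 were above 0 and 10 below, and 4 were lower at an unadjusted p under 0.05 (2.82% of all), with 0 higher and a median of 0.01. The 4 were Tac1, the precursor of substance P, at 6.58, 6.63 and 5.68 at 24 h against 7.13, 7.14 and 7.18 at 4 h, the prohormone-processing enzyme Cpe at -0.67, the convertase chaperone Scg5 at -0.43 and the granin Scg2 at -0.62. Neurons also make these 4. The brightest members, the hormones secretin (Sct) and peptide YY (Pyy), differed by 0.12 and 0.08. Under the sex covariate 3 were lower at that p and the median was -0.07. The count of members lower at that p was 1 without replicate 1 of the 24 h group, and 1 without replicate 1 or replicate 3 of the 4 h group.

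Genes of antigen presentation and of lymphocytes were mostly below 0. Of 17 genes of MHC class I presentation, 13 were below 0 and 4 lower at an unadjusted p under 0.05 (2.82% of all), with a median of -0.25. Psmb8, a subunit of the immunoproteasome, had levels of 6.87, 6.38 and 6.10 at 24 h against 6.96, 7.94 and 7.53 at 4 h, a difference of -1.03 ± 0.32 (SE). A second Psmb8 probe gave -0.24. The proteasome activator Psme2 differed by -0.51, the peptide transporter Tap1 by -0.48 and the class Ib molecule H2-M3 by -0.48. The bright members B2m and Psme1 differed by -0.20 and -0.25. The count at that p was 1 without replicate 2 or 3 of the 24 h group or replicate 2 of the 4 h group. All 10 MHC class II genes were below 0, none at an unadjusted p under 0.05, with a median of -0.20, which was -0.40 without replicate 1 and -0.07 without replicate 2 of the 4 h group. Of 20 T cell markers 14 were below 0, with 1 higher (Cd247, by 0.34) and 2 lower (Cd6, by 0.81, and Ccl5, by 0.57 on the log2 scale) at an unadjusted p under 0.05 and a median of -0.25. Without replicate 1 of the 4 h group 8 of the 20 were lower at that p, as were 517 of 16835 genes and probes. The T cell median was then -0.42. Without replicate 3 of the 24 h or of the 4 h group 0 were lower at that p, with medians of -0.17 and -0.13. None was with sex as a covariate, with a median of -0.28. Cd8b1, a coreceptor chain of intraepithelial lymphocytes and the brightest of them, differed by 0.09, and its other probes gave -0.94 and -0.17.

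Of 12 B cell markers 10 were below 0, none at an unadjusted p under 0.05, and the median was -0.28. Single pups decided these values. Without replicate 1 of the 4 h group 7 of 12 were lower at that p, as were 517 of 16835 genes and probes. The B cell median was then -0.89, and without replicate 2 of the 4 h group it was 0.10. It was -0.15 without replicate 3 of the 4 h group. The B cell receptor component Cd79b shows the spread: 7.57, 6.26 and 6.05 at 24 h against 5.56, 8.39 and 7.93 at 4 h, with replicate 1 of the 4 h group below every other pup. Summed linear signal of the 12 markers ran from 534 to 865 at 24 h and from 387 to 1570 at 4 h. Lymphoid follicles lie under the ileal epithelium, and their part in these differences was not tested. The medians of the T cell, B cell and class II lists were 0.02, 0.19 and 0.07 with DSM 17938 and 0.23, 0.27 and 0.11 with PBS, all above 0, while the class I list was below 0 there too, with medians of -0.23 with DSM 17938 and -0.13 with PBS. The time difference of 3 of 20 T cell markers was lower, and that of 1 higher, with ATCC PTA 6475 than with PBS at an unadjusted p under 0.05 (2.1% and 2.63% of all).

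**Figure D3:**
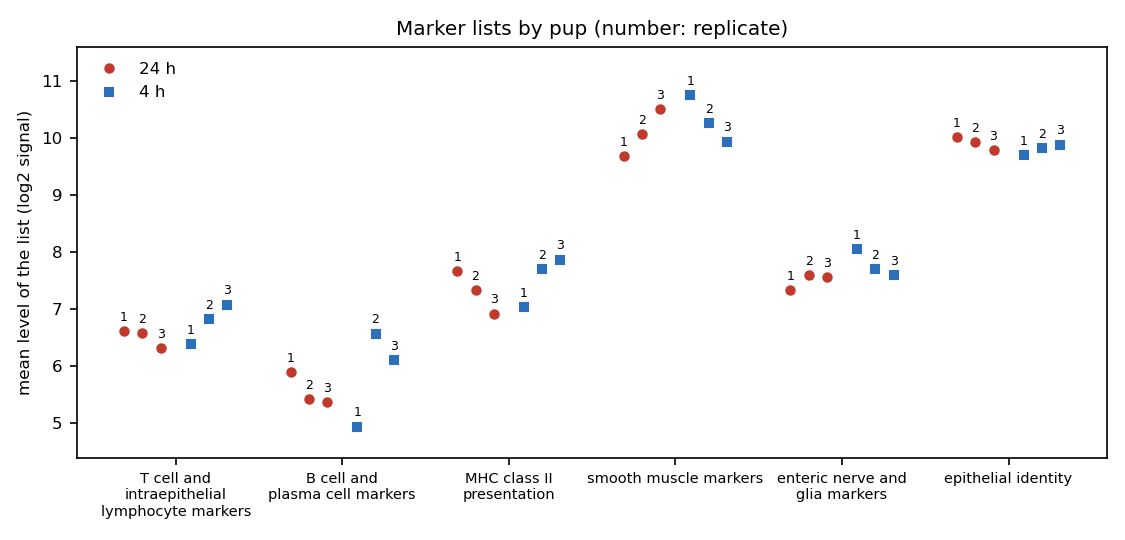
Mean log2 level of 6 marker lists in each pup, with 24 h pups as circles to the left of 4 h pups as squares and the replicate number above each point. Replicate 1 of the 4 h group is lowest in B cell markers and highest in smooth muscle and nerve markers, and the epithelial identity list differs little between pups.

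Other markers of tissue around the epithelium held no member at an unadjusted p under 0.05: 14 of 16 smooth muscle genes (median -0.19), 14 of 23 fibroblast and matrix genes (-0.10), 11 of 18 endothelial genes (-0.06) and 4 of 6 erythroid genes (-0.24) were below 0. Leaving out single pups moved these medians. That of smooth muscle was -0.02 without replicate 1 of the 24 h group and -0.01 without replicate 1 of the 4 h group. It was -0.38 without replicate 3 of the 24 h group, with 3 members lower at that p. In that setting 474 of 16835 genes and probes were lower at that p. With male arrays only, which left 1 pup at 24 h, the smooth muscle median was 0.24. Those of fibroblast, endothelial and erythroid genes stayed below 0, at -0.24, -0.09 and -0.51. The endothelial median was 0.04 without replicate 3 of the 4 h group, and the fibroblast median was -0.008 without replicate 2 of the 24 h group and, with 3 members lower at that p, -0.21 with sex as a covariate. Myeloid markers had a median of -0.07 with 1 of 18 at an unadjusted p under 0.05, the macrophage receptor Cd163, higher by 0.51. Of the epithelial cell types, Paneth markers (11 tested, median 0.13) and tuft cell markers (8 tested, median -0.12) held no member at that p. Epithelial identity had a median of 0.13, which was -0.08 with male arrays only. The Paneth median had no steady sign: it was -0.24 with sex as a covariate and -0.70 with male arrays only. It was -0.21 without replicate 2 of the 24 h group and -0.14 without replicate 1 of the 4 h group. With arrays brought to a common median it was -0.05, which is 0.07 above the shift of all genes in that setting. The tuft median was -0.002 without replicate 1 of the 24 h group.

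Interferon-stimulated genes had medians below 0 between the times in pups of every treatment. With ATCC PTA 6475, 21 of 30 were below 0 and 2 were lower at an unadjusted p under 0.05, with a median of -0.14, which was -0.06 with sex as a covariate and -0.04 without replicate 3 of the 24 h group. With DSM 17938 the median was -0.41 and 8 were lower at that p (1.28% of all), and with PBS it was -0.27 with 3 lower (1.92% of all). The antiviral gene Ifit3 had levels of 7.37, 6.63 and 6.50 at 24 h against 8.34, 7.71 and 8.40 at 4 h, a difference of -1.32 ± 0.61 (SE), compared with -1.54 for DSM 17938 and -1.11 for PBS. The ubiquitin-like Isg15 differed by -0.76, against -1.55 and -0.59. The bright members Irf1 and Irgm1 differed by -0.12 and 0.32. The other Irf1 probes gave -0.17, -0.14, -0.11 and 0.11, and a second Irgm1 probe went the other way, at -0.15.

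Antimicrobial genes were split. Of 20 tested, 10 were above and 10 below 0, with a median of -0.05 that lay between -0.17 and 0.13 when single pups were left out (without replicate 1 and without replicate 3 of the 4 h group). The 1 member at an unadjusted p under 0.05 was Pigr, the receptor that carries immunoglobulin A into the lumen, at 9.50, 9.85 and 8.98 at 24 h against 7.58, 8.92 and 8.46 at 4 h. Its difference of 1.12 ± 0.40 (SE), 2.18-fold, compares with 0.81 for DSM 17938 and 0.87 for PBS, so its level was higher at the later time in all treatments. In PBS pups the list median was 0.52 with 7 members higher at an unadjusted p under 0.05 (1.89% of all), and 3 of the 20 were lower in the ATCC PTA 6475 time difference than in that of PBS (2.1% of all). With DSM 17938 the median was -0.18. The spread within a group was wide for some members: Retnlb, a defence protein of goblet cells named after its values were seen, averaged 8.96 at 24 h, where 2 of 3 arrays detected it, and 11.03 at 4 h, with a standard error of 2.05 for the difference.

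Among bacterial sensors and NF-kB genes, 15 of 29 were above 0 and 1 was at an unadjusted p under 0.05. That gene was Tlr2, the receptor of bacterial lipoproteins, at 6.44, 7.25 and 6.17 at 24 h against 7.11, 7.77 and 8.26 at 4 h, a difference of -1.10 ± 0.36 (SE), compared with -0.03 for DSM 17938 and -0.09 for PBS. Replicate 2 at 24 h stood above replicate 1 at 4 h, so the times overlapped. Of 19 chemokines, Ccl25, which draws lymphocytes to the small intestine, was higher by 0.49 with levels of 12.44, 12.59 and 12.33 at 24 h against 12.11, 12.17 and 11.61 at 4 h, but its other probes gave -0.04 and -0.05. Ccl19, of lymphoid stroma, was lower by 1.18 on the log2 scale and Ccl5 by 0.57. The sex covariate left 3 chemokines higher at that p and 0 lower. Of 21 immediate early genes 15 were below 0, and Junb and Klf2 were lower by 0.33 and 0.37 at an unadjusted p under 0.05.

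The genes by which enterocytes handle milk moved little as groups. Of 17 suckling-stage genes, 12 were below 0 with a median of -0.10, and the lysosomal glucosidase Gaa was the 1 at an unadjusted p under 0.05, differing by -0.36. The median was 0.02, with 10 of 17 above 0, without replicate 3 of the 4 h group, -0.20 without replicate 2 of that group and -0.02 with sex as a covariate. The neonatal Fc receptor Fcgrt, which takes up maternal antibody, had levels of 12.54, 13.06 and 13.27 at 24 h against 12.75, 13.14 and 13.66 at 4 h. Of 11 genes that rise at weaning the median was -0.004, and only trehalase (Treh), higher by 0.52, had an unadjusted p under 0.05. With sex as a covariate 0 were at that p and the median was 0.001. It was 0.17 without replicate 3 of the 4 h group and 0.16 without replicate 1 of the 24 h group. Brush border hydrolases (12 tested) had a median of -0.03, with the peptidase Naaladl1 at -0.60, and 0.13 with sex as a covariate. Of 17 genes of fat absorption 14 were below 0 with a median of -0.16, and Plin2, which coats lipid droplets, was at 7.41, 6.92 and 6.38 at 24 h against 7.65, 7.84 and 7.60 at 4 h. The main chylomicron apolipoproteins Apoa1 and Apoa4 differed by -0.03 and -0.18.

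Of 9 bile acid handling genes 8 were above 0, none at an unadjusted p under 0.05, and their median of 0.30 compares with 0.19 for DSM 17938 and 0.20 for PBS. Of 18 cholesterol synthesis genes 15 were above 0 and 1, Lss, was at that p, with a median of 0.23. The median of this list was 0.06 with DSM 17938 and 0.31 with PBS, where 6 were higher at that p (1.89% of all). The cholesterol median was 0.11 without replicate 1 of the 4 h group. Of 11 genes of arginine and citrulline synthesis 1 was higher and 3 lower at an unadjusted p under 0.05 (3.13% and 2.82% of all). No overlap between the times was seen in 5 (10.8% of all). Asl, which makes arginine from argininosuccinate, had levels of 4.75, 5.24 and 5.25 at 24 h against 5.98, 6.12 and 5.97 at 4 h, a difference of -0.94 ± 0.28 (SE), although its time difference was -0.28 with DSM 17938 and 0.15 with PBS. At 24 h Asl lay near the lowest detected signals of those arrays, which were 4.68, 4.79 and 4.86. Arginase 1 (Arg1) differed by -0.65, proline dehydrogenase (Prodh) by 0.47, and Nags, the source of the activator of the urea cycle, was not well above background in any 24 h pup and stood at least 1.14-fold higher at 4 h. Second probes gave -0.59 for Asl, -0.19 for Arg1 and 0.32 for Prodh. The bright members Oat and Aldh18a1, which link glutamate to ornithine and proline, differed by 0.04 and 0.10. Of 8 genes of gluconeogenesis Fbp1 differed by -0.70, and of 14 of glycolysis Pfkp by -0.62, each the 1 member at that p.

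Housekeeping groups lay near 0, with cytosolic ribosomal proteins furthest from it. Of 28 of these 22 were below 0 with a median of -0.15, and Rps7, Rps4x and Rpl22 were lower by 0.61, 0.47 and 0.38 on the log2 scale at an unadjusted p under 0.05. Without replicate 1 of the 24 h group 8 were lower at that p, as were 601 of all 16835 genes and probes. Without replicate 2 or 3 of that group or replicate 2 of the 4 h group 0 ribosomal proteins were. In Rps7, replicate 3 of the 24 h group was the lowest pup at 11.19, with 12.20 and 11.84 in the other 24 h pups and 12.26, 12.37 and 12.42 at 4 h. The respiratory chain (30 tested, median -0.07), tricarboxylic acid cycle (17 tested, -0.05), mitochondrial ribosome (31 tested, -0.02), proteasome (32 tested, -0.02) and fatty acid oxidation (25 tested, -0.04) held 0 or 1 member at an unadjusted p under 0.05. With sex as a covariate, where 648 of all 16835 were lower at that p, 5 respiratory chain genes were lower with a median of -0.17. In that fit 4 mitochondrial ribosome genes were lower and 1 higher with a median of -0.11, and 9 cytosolic ribosomal proteins were lower with a median of -0.15. Heat shock genes had a median of 0.06 and 1 member at that p, the cytosolic chaperone Hsp90aa1, at 9.41, 9.10 and 9.47 at 24 h against 8.65, 8.88 and 8.74 at 4 h. A second Hsp90aa1 probe gave -0.06, and with the mean of all probes 0 heat shock genes were at that p. Endoplasmic reticulum stress genes (0.04), amino acid starvation targets (0.07), enterocyte transcription factors (0.13), clock genes (0.08), glucocorticoid-responsive genes (0.11), junction genes (0.07), crypt stem cell genes (0.02) and nutrient transporters (0.03) had medians above 0, all of which turned below 0 with arrays brought to a common median, and the crypt stem cell median was -0.02 with sex as a covariate. Xenobiotic metabolism (-0.08) and p53 targets (-0.09) lay below 0, and of the p53 list the survival factor Bcl2l1 differed by -0.68, with -0.27 from a second probe. Of the 48 lists 19 had medians above 0, and 15 of these turned with arrays brought to a common median, where the median of all genes was -0.12. Measured from that shift of all genes, 5 of the 48 list medians changed sign. The lists from endoplasmic reticulum stress genes to nutrient transporters then stayed above 0, from 0.003 for crypt stem cell genes to 0.05 for enterocyte transcription factors.

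**Figure D4:**
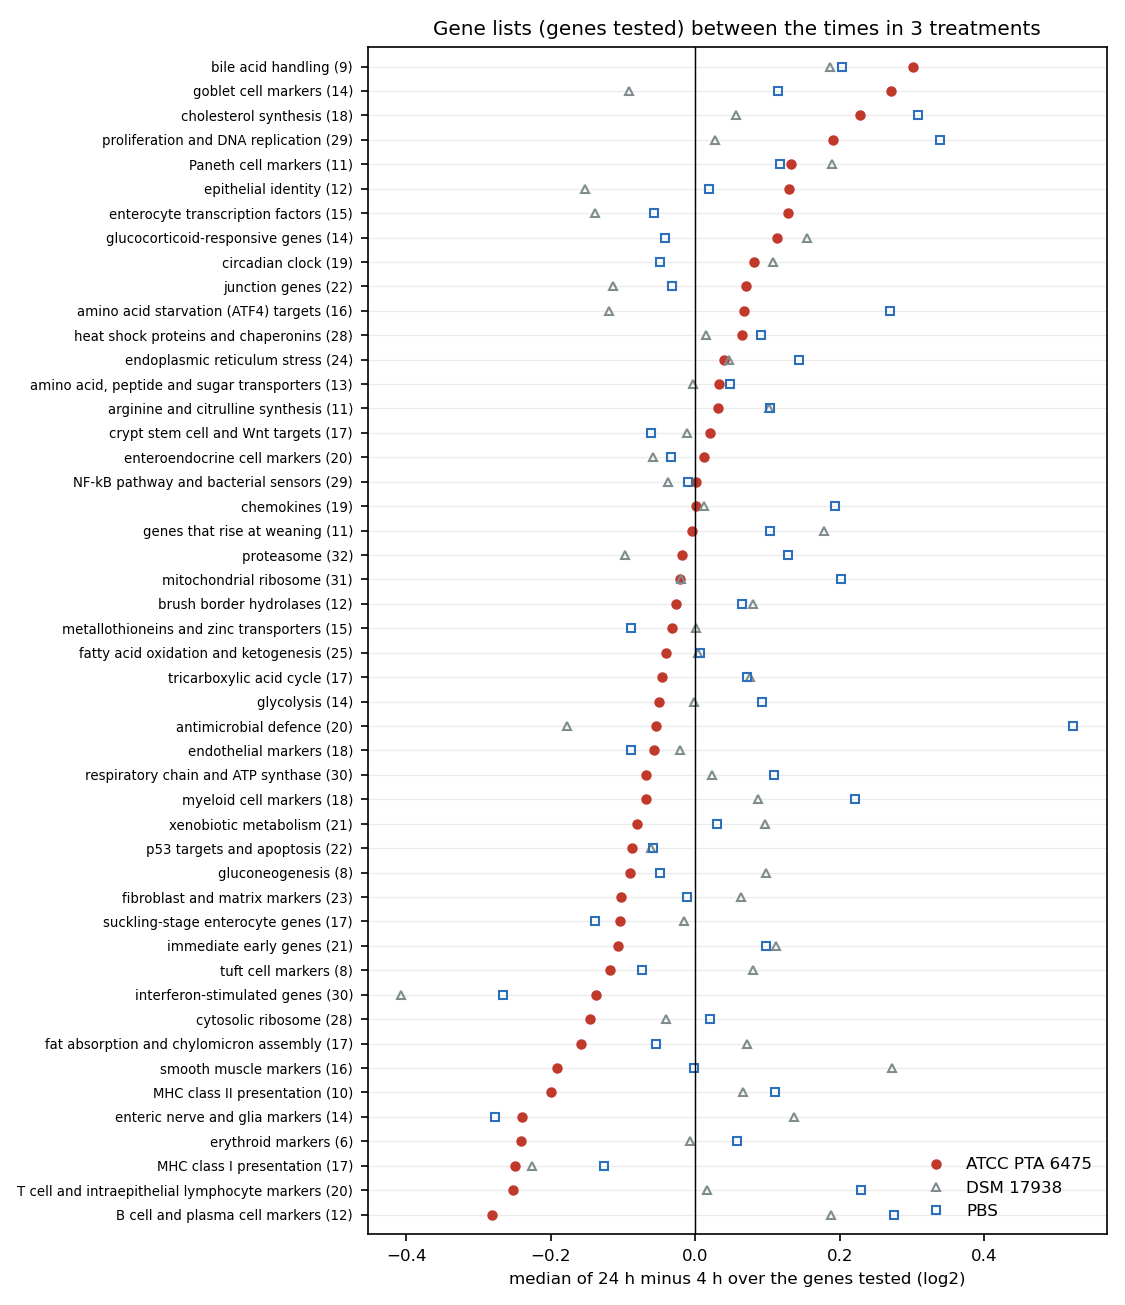
Median difference between 24 h and 4 h over the genes tested in each of 48 lists (number tested in brackets), on a log2 scale, for ATCC PTA 6475 pups as filled circles, DSM 17938 pups as triangles and PBS pups as squares. With ATCC PTA 6475 the medians run from -0.28 for B cell markers to 0.30 for bile acid handling. Many of the 48 lists, the goblet, T cell and B cell lists among them, differ in the sign of the median between treatments.

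The time difference with ATCC PTA 6475 was set against that with PBS by an interaction term, which asks whether the course differs from that of the vehicle. In limma 0 of 16835 (0%) had an adjusted p under 0.05, and 795 (4.72%) had an unadjusted p under 0.05. For comparison, 643 (3.82%) had an unadjusted p under 0.05 between the times in PBS pups and 416 (2.47%) in DSM 17938 pups, and none an adjusted one under 0.05. Tubgcp4 led the genes above PBS, with a difference of 0.60 against -0.35, 0.96 apart (95% interval 0.49 to 1.42), but its second probe went the other way. Hsd3b2, a steroid dehydrogenase, had levels of 12.85, 12.75 and 12.64 at 24 h against 12.14, 12.43 and 12.05 at 4 h, a difference of 0.54 against -0.37 in PBS, 0.91 apart (95% interval 0.46 to 1.37). Its other probes gave 0.02 and 0.35 between the times. The spectrin Sptbn1 (0.61 above PBS), the polyadenylation factor Cpsf6 (0.73), the membrane protein Tmem47 (0.72) and Ccndbp1 (0.83) made up the upward genes. Other probes went the other way between the times for Sptbn1 (-0.18 and -0.07), for Cpsf6 in 1 of 4 (-0.38) and for Tmem47 in 1 of 2 (-0.27). Below PBS, Akr1c12 stood at -1.32 against 0.54, -1.86 apart (95% interval -2.91 to -0.81), and Rnf114 at -0.85 against -0.01. Gpr176, Hes5, Ccnk and the histone gene H4c17 were -0.87, -0.73, -0.69 and -0.68 from PBS in the fit, all at levels under 6 in these pups, and Hes5 and Ccnk were not well above background in any 24 h pup, so their fitted values are no measure of size.

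Against DSM 17938, 0 (0%) had an adjusted p under 0.05 and 524 (3.11%) an unadjusted one. Besides Agr2 and Clca1, the genes above DSM 17938 were Trim68 (1.18), Oit1 (0.86), Mmp28 (0.78) and Ccndbp1 (0.74). Between the times Mmp28 differed by 0.43, and its other probes gave 0.04 and -0.19. Oit1 had levels of 6.77, 6.77 and 6.70 at 24 h against 6.16, 6.48 and 5.91 at 4 h, a difference of 0.57 against -0.29 with DSM 17938 and 0.06 with PBS. Below it were Gdf10, a growth factor of the TGF-beta family, at -1.71, the kinase of pyruvate dehydrogenase Pdk2 at -1.15, Hpcal4 at -1.03, Nme5 at -1.01, Mettl24 at -0.81 and Mylk2 at -0.67. Pdk2 had levels of 6.28, 6.30 and 6.83 at 24 h against 7.09, 7.05 and 7.10 at 4 h, a difference of -0.61, compared with 0.54 for DSM 17938 and 0.15 for PBS. With a median standard error of 0.26 for a difference between time courses, gaps of the size seen in most genes were not detectable with 3 pups a group.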

How the data were processed

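Transcripts were measured on single-colour Illumina mouse bead arrays, 1 per pup, in 6 groups of 3 pups, of which the ATCC PTA 6475 groups are described. Per the labels' protocols, RNA of laser-captured cells was copied into biotin-labelled cRNA. GenomeStudio is the program named in the submitters' processing notes, with its version not given in the sources used here. Bead signals were deposited as intensity on a linear scale and, per the file headers, without normalisation. Detection was deposited as a fraction from 0 to 1 that rises with the signal, so 1 minus the value was used as the detection p. The value table that the authors made holds log2 values, has a median of 5.92 in each column and lies within 0.0386 of log2 quantile-normalised signals; it served as an alternative.

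Background was modelled from the detection values with neqc in limma 3.58.1 (R 4.3.3; offset 16, quantile normalisation, log2). The filter kept 24506 of 45281 probes, those detected (p under 0.05) on 3 or more of the 18 arrays. Symbols came from the platform annotation, updated through gene IDs for 34807 probes, with 1 symbol for 34885 probes, several for 18 and none for 10378. The probe with the highest mean stood for its gene, which gave 12804 genes and 4031 unnamed probes. The limma model gave each of the 6 groups its mean over the 18 arrays (12 residual and 4.27 prior degrees of freedom) and p-values were adjusted by Benjamini-Hochberg over all genes and probes at 0.05; the fit was tested on simulated data. Replicate arrays correlated at 0.976 to 0.987, and none were identical.

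Named genes are, per direction, the 15 with the smallest unadjusted p between the times, 6 for each interaction term, and for each of 48 gene lists up to 6 members at an unadjusted p under 0.05 and the 2 brightest; predicted genes and clones were left out. The lists hold 1068 written entries, of which 873 were tested. The comparison and the lists were chosen with earlier results of these data known. Promoter sequences are from RefSeq (GRCm38.p6), read with the 250 bases before the start. Alternatives were the offset, median scaling, the deposited values, detection filters, a replicate block, array weights, the arrays in the fit, a sex covariate, the mean of probes and leaving out each pup.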

Additional observations from a re-analysis of the deposited data

How the results depend on the processing

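The comparison was run again under 16 other settings, over 16835 genes and probes except for 29453 without a detection filter and 12619 with the stricter one. A setting with only the arrays that read as male, chosen after seeing the data, left 1 pup at 24 h in the ATCC PTA 6475 and in the PBS group, assumed to vary like the others. The count at an adjusted p under 0.05 was 0 in 15 of these 17, 1 (Nnat) with array weights and, over the settings that leave out 1 pup, 0 to 2; the 2 were Nnat and Mosmo, without replicate 1 of the 24 h group, at adjusted p 0.0448. At an unadjusted p under 0.05 there were 525 with median scaling, 1629 without a detection filter, 1615 with array weights and 1525 with male arrays only, against 1002. The counts against PBS were 255, 1400 and 1456 with median scaling, no filter and male arrays, and those against DSM 17938 were 259, 1094 and 940 with median scaling, no filter and array weights. Slc38a1 turned to 0.17 with the deposited values and Ccndbp1 to -0.043 with the mean of all detected probes. Of list medians, 767 of 816 under an alternative moved by less than the spread between pups and 49 by more. Same-numbered pups deviated together at correlations of -0.03, 0.09 and 0.10, so the numbers were not taken as pairs; with the replicate block 0 passed and 1365 had an unadjusted p under 0.05. Other probes of the named genes went the other way in 51 of 147. Among the limits are 3 pups a group, sex that moves with time, a wider range of raw signal at 24 h than at 4 h, and levels near background for many named genes; the causes of these shifts were not tested.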
